A study of Homo sapiens with 6 samples.

Results

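The genes described are 9 markers of SOX and neural crest lineage identity, SOX2, SOX4, SOX9, SOX10, SOX11, TFAP2A, FOXD3, PAX3 and EDNRB, out of 19775 genes measured by array in a neuroblastoma (NB) line and its drug-resistant subline. They were chosen by name, from probe sets that the array's annotation gives to a single gene symbol, and the brightest probe set of each gene, averaged over the 6 arrays, stands for it. The 9 genes have 30 probe sets in all. SY5Y-TR1 cells are a single subclone that was expanded after SH-SY5Y cells had been exposed to rising doses of the ALK inhibitor TAE684, and they were kept in medium with 1 μM of it. SH-SY5Y, the parental TAE684-sensitive line, was kept without the inhibitor. Both lines carry the ALK mutation F1174L and grew in RPMI-1640 with 10% fetal bovine serum. Total RNA of 3 biological replicates of each line was profiled on Affymetrix expression arrays (HG-U133 Plus 2.0). Because a subclone grown in TAE684 was set against its parental line grown without it, effects of selection, of cloning and of the inhibitor itself cannot be told apart. The labels call the replicates biological without saying whether they were separate cultures, so the p-values measure the spread between these samples, which may be technical.

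SOX proteins are transcription factors that bind DNA through an HMG box. SOX2 belongs to the SOXB1 group, which keeps neural and pluripotent progenitors undifferentiated. SOX4 and SOX11 form, with SOX12, the SOXC group of neuroblasts and immature neurons. SOX9 and SOX10 are SOXE factors, with SOX9 acting in the early neural crest and in cartilage and SOX10 in migrating crest, glia and melanocytes. TFAP2A, FOXD3 and PAX3 specify the neural crest at and beside the neural plate border, and EDNRB is the endothelin receptor of migrating crest cells. The neural crest gives rise to the sympathetic neuroblasts from which NB arises.

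The 9 genes split into 3 lower in SY5Y-TR1 cells, 1 that differed by less than 2-fold and 5 not above the chosen background level in either line. SOX2 fell at least 5.59-fold, SOX11 7.22-fold and SOX4 2.50-fold, whereas SOX9 had a log2 fold change of 0.42. SOX10, TFAP2A, FOXD3, PAX3 and EDNRB lay at or under the background level on all 6 arrays. Since the deposited values came without detection calls, that level was set from 38 genes listed as specific to unrelated tissues. It is a log2 signal of 6.31, under which 90% of them lay on average. The list was not free of clear signal, since KRT10 averaged 11.59 in SY5Y-TR1 and 11.20 in SH-SY5Y. For a gene whose dimmer line stayed within background on all arrays, the fold is a lower bound, the mean of the brighter line over this level. A gene was called when the lines differed by 2-fold or more and limma's p, adjusted over all genes by Benjamini-Hochberg, was under 0.05. By this rule 3 of the 9 genes were called lower, against 5.99% of all genes, and 0 were called higher, against 5.36%. In either direction 11.4% of all genes were called. At an adjusted p under 0.05 alone, 5 of the 9 genes passed (55.6%), beside 52.8% of all genes. The median log2 fold change was -0.19 over the 9 genes and 0.04 over all genes.

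**Figure D1:**
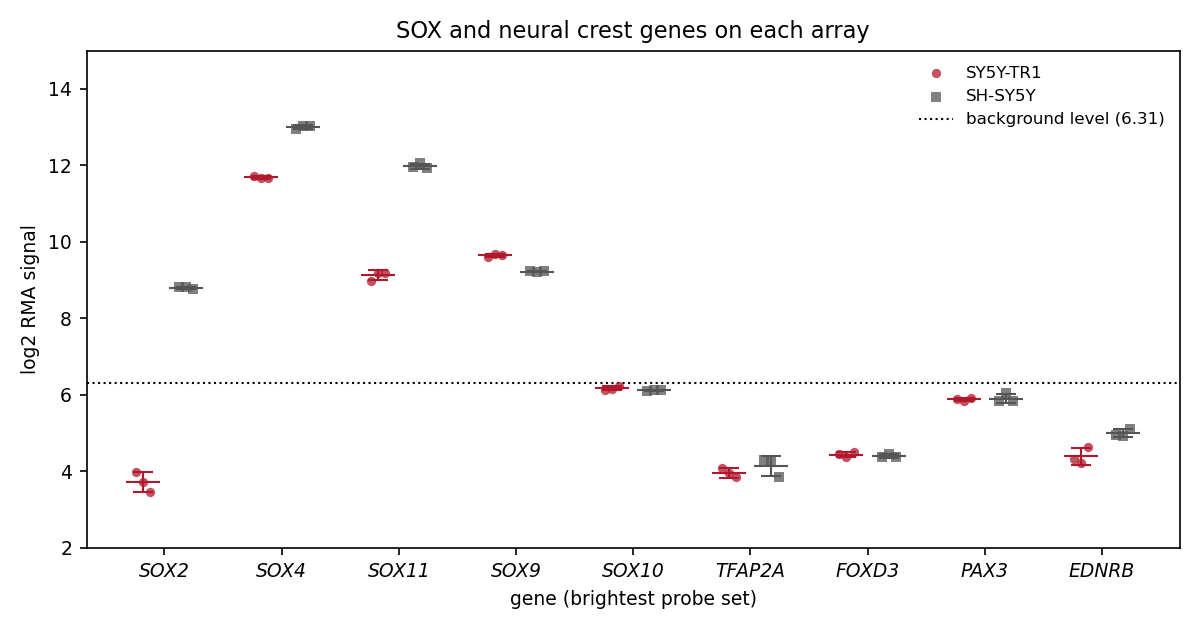
Log2 RMA signal (y axis) of the brightest probe set of each of the 9 genes (x axis) on the 3 arrays of SY5Y-TR1 (red circles, left of each pair) and of SH-SY5Y (grey squares), with the mean and SD as lines and the background level of 6.31 dotted. SOX2 lies at 3.72 in SY5Y-TR1, under that level, and at 8.79 in SH-SY5Y, whereas SOX10, TFAP2A, FOXD3, PAX3 and EDNRB lie at or under it in both lines.

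Windows of 250 bases before the annotated starts of SOX2 and SOX4 are shown because both genes fell and both have an entry in the RefSeq promoter table (GRCh38.p14). They lie at chr3:181711675-181711924 and chr6:21593501-21593750, each on the plus strand. Capitals mark CCAAT boxes (CCAAT, or ATTGG on the other strand) and GC boxes (GGGCGG, or CCGCCC on the other strand).
SOX2: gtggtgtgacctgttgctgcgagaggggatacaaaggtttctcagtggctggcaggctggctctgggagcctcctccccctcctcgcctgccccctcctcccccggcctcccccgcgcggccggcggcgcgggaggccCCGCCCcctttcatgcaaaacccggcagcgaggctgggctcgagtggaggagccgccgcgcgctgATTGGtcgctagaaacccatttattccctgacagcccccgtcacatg
SOX4: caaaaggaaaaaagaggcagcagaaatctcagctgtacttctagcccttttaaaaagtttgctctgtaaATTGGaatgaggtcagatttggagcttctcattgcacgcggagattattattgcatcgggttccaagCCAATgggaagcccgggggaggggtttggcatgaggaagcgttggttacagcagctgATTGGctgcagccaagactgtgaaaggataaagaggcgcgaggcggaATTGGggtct
The SOX2 window held 1 CCAAT box and 1 GC box, and the SOX4 window held 4 CCAAT boxes and 0 GC boxes. Of 35116 windows of this length in the table, 32.0% held a CCAAT box and 42.6% a GC box. The SOX motif AACAAT, found in 8.98% of all windows on either strand, was in neither window. The same was true of the E-box CACCTG (17.5%). The TFAP2 motif GCCNNNGGC (19.8%) occurred 1 time in the SOX2 window. These matches describe letters and not sites in use.

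SOX2 was read at 3.98, 3.72 and 3.47 on the log2 scale in SY5Y-TR1 cells, against 8.82, 8.81 and 8.76 in SH-SY5Y cells. All SY5Y-TR1 arrays lay under the background level, and all SH-SY5Y arrays above it. The fitted log2 fold change of -5.07 ± 0.12 (standard error) had an adjusted p of 1.16e-07 in limma and was the 42nd lowest of 19775 genes, although its size depends on signals under background. With values raised to the background level it was -2.48. The fall rests on 1 of 4 SOX2 probe sets. A dimmer one averaged 6.07 ± 0.03 on the SY5Y-TR1 arrays, against 6.39 ± 0.07 on those of SH-SY5Y (mean ± SD of 3 arrays), a difference of -0.32 close to the background level, and the remaining 2 were under that level on every array. With the mean of the 4 probe sets the log2 fold change was -1.31, which passed. This mean again rests mainly on the brightest probe set, since the others gave -0.32, 0.01 and 0.14. In bulk RNA, fewer cells with a transcript and less of it per cell cannot be told apart.

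SOX11 gave log2 signals of 8.98, 9.20 and 9.20 in SY5Y-TR1 and 11.95, 12.06 and 11.94 in SH-SY5Y. The lines did not overlap, and SOX11 stayed above the background level on all SY5Y-TR1 arrays. A lack of overlap is not particular to these genes. GAPDH and PPIA, the 2 brightest housekeeping genes, did not overlap either, and the share of all genes without overlap was not counted. It fell by 2.85 ± 0.08 on the log2 scale (standard error; limma, adjusted p = 1.74e-07), the 197th lowest log2 fold change of all genes. All 3 SOX11 probe sets were called lower, with log2 fold changes between -2.86 and -2.76. Each of them has a name ending in _s_at, which marks probes shared by several transcripts, so SOX11 gave no value when such probe sets were left out.

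SOX4 gave 11.72, 11.66 and 11.68 in SY5Y-TR1 and 12.96, 13.02 and 13.04 in SH-SY5Y. Every SY5Y-TR1 array read lower than every SH-SY5Y array. SOX4 fell by 1.32 ± 0.04 on the log2 scale (standard error; limma, adjusted p = 4.56e-07). Of 6 SOX4 probe sets, 4 were called lower, with log2 fold changes between -1.74 and -1.32, and the other 2 were under the background level on every array. Over the 30 probe sets of the 9 genes, 8 were called lower and 0 higher, beside 4.58% and 3.79% of all probe sets.

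The SOXC genes did not change to the same extent. The log2 fold change of SOX11 was 1.53 below that of SOX4, a difference of -1.53 that the exact permutation test over arrays gave at p = 0.1 (two-sided, n = 3 arrays in each line), the smallest p that 3 arrays against 3 allow. The 95% intervals were -3.03 to -2.67 for SOX11 and -1.43 to -1.22 for SOX4. These values are of the brightest probe sets, and the size of the gap depends on that choice. Log2 fold changes of the called probe sets ran from -1.74 to -1.32 for SOX4 and from -2.86 to -2.76 for SOX11. SOX12, the remaining SOXC gene, read 7.46, 7.50 and 7.54 in SY5Y-TR1 and 7.37, 7.31 and 7.45 in SH-SY5Y, and its log2 fold change of 0.12 (95% interval 0.00 to 0.24) did not pass.

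SOX9 was slightly brighter in SY5Y-TR1 cells, at 9.60, 9.69 and 9.65 against 9.23, 9.21 and 9.23 in SH-SY5Y cells. The 3 arrays of each line stood apart from those of the other. The log2 fold change of 0.42 (95% interval 0.32 to 0.52, adjusted p = 0.000118 from limma) is a 1.34-fold difference and did not reach the 2-fold limit. The other SOX9 probe set gave 0.36. Both lay well above the background level in both lines.

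SOX10, the partner of SOX9 in the SOXE group, read 6.14, 6.15 and 6.24 in SY5Y-TR1 and 6.10, 6.13 and 6.12 in SH-SY5Y. All 6 values lay just under the background level, and the difference of 0.07 (95% interval -0.04 to 0.17) did not pass. PAX3 gave 5.89, 5.85 and 5.91 in SY5Y-TR1 and 5.84, 6.04 and 5.83 in SH-SY5Y. Its lines overlapped, and a dimmer PAX3 probe set, which differed by 0.52 on the log2 scale, was also under the background level. FOXD3 gave 4.45, 4.37 and 4.50 in SY5Y-TR1 and 4.37, 4.45 and 4.37 in SH-SY5Y, which overlapped too. TFAP2A read 4.08, 3.95 and 3.84 in SY5Y-TR1 and 4.30, 4.30 and 3.85 in SH-SY5Y, again with overlapping lines. EDNRB read 4.32, 4.21 and 4.65 in SY5Y-TR1 and 4.96, 4.93 and 5.12 in SH-SY5Y. The EDNRB lines did not overlap on any of its 3 probe sets, which was also seen for housekeeping genes such as GAPDH. The log2 fold change of the brightest EDNRB probe set was -0.61 (adjusted p = 0.00386 from limma), but no fold is read from signals under background. In total 19 of the 30 probe sets, among them all 15 of these 5 genes, were at or under the background level on every array, so that the size of a difference could not be read there. Of these, all 3 EDNRB probe sets and 1 PAX3 probe set had an adjusted p under 0.05 in the limma fit of all probe sets. In the separate fit of genes, 52.8% of all genes passed that limit. The share of all probe sets that passed it is not given here.

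**Figure D2:**
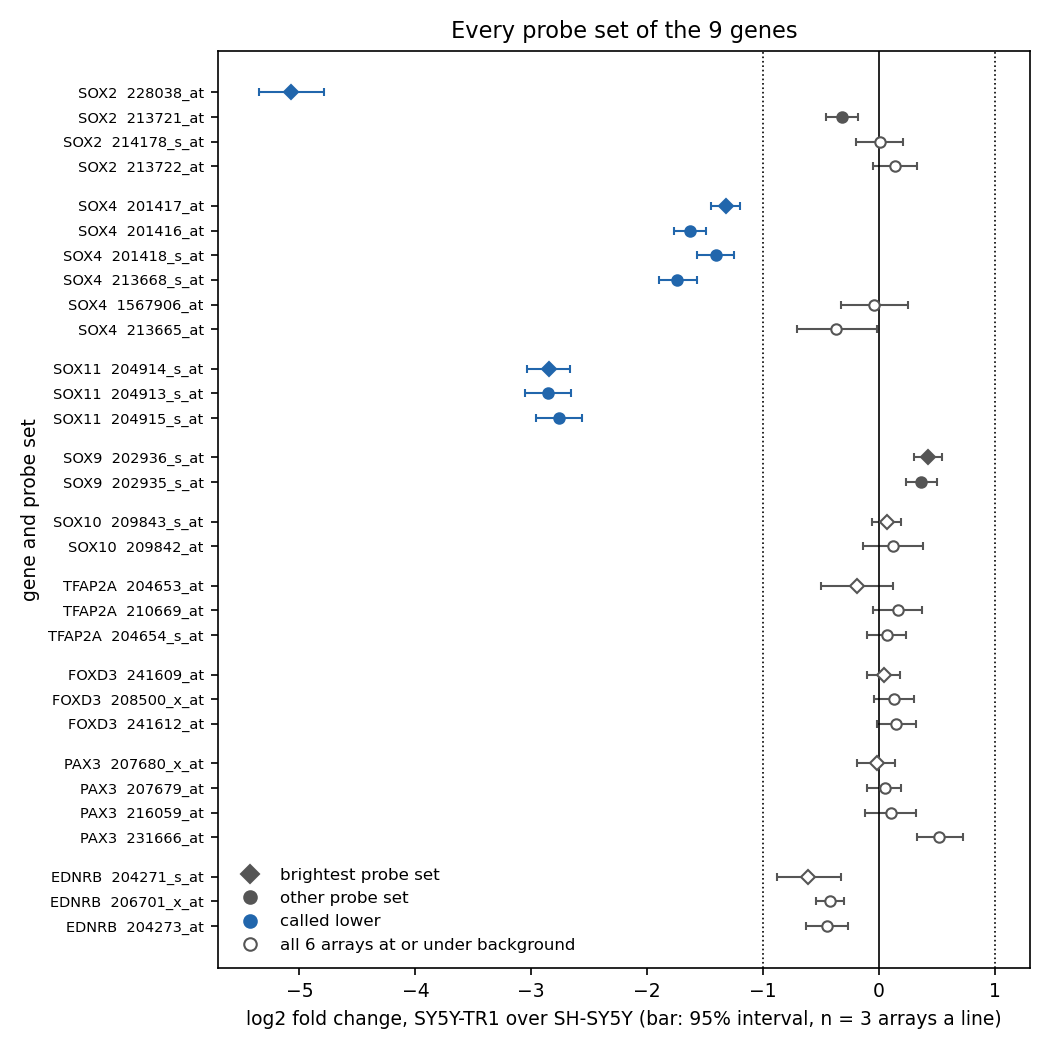
Log2 fold change (x axis, SY5Y-TR1 over SH-SY5Y, bars show 95% intervals from 3 arrays per line) of each of the 30 probe sets (y axis). Diamonds are the brightest probe set of a gene, circles the others, blue marks called probe sets, open symbols lie at or under the background level on all 6 arrays, and dotted lines mark 2-fold; the 3 SOX11 probe sets lie together near -2.85, whereas 1 of the 4 SOX2 probe sets stands apart at -5.07.

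Of 14 other SOX genes, 2 were called lower, 0 higher and 12 did not pass, and the median log2 fold change was 0.10. SOX7, a SOXF factor best known from endothelium, read 4.60, 4.76 and 5.0 in SY5Y-TR1 and 7.66, 7.67 and 7.79 in SH-SY5Y. It fell at least 2.63-fold (adjusted p = 6.16e-07 from limma) through both of its probe sets. SOX5, a SOXD factor that lacks a transactivation domain, passed with a log2 fold change of -1.38, but all 6 of its arrays lay under the background level. SOX15 gave a log2 fold change of 0.61 and SOX13 of 0.24, neither reaching 2-fold. The other SOXB1 genes SOX1 and SOX3 and the other SOXE gene SOX8 were among the 10 SOX genes at or under the background level on all arrays.

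**Figure D3:**
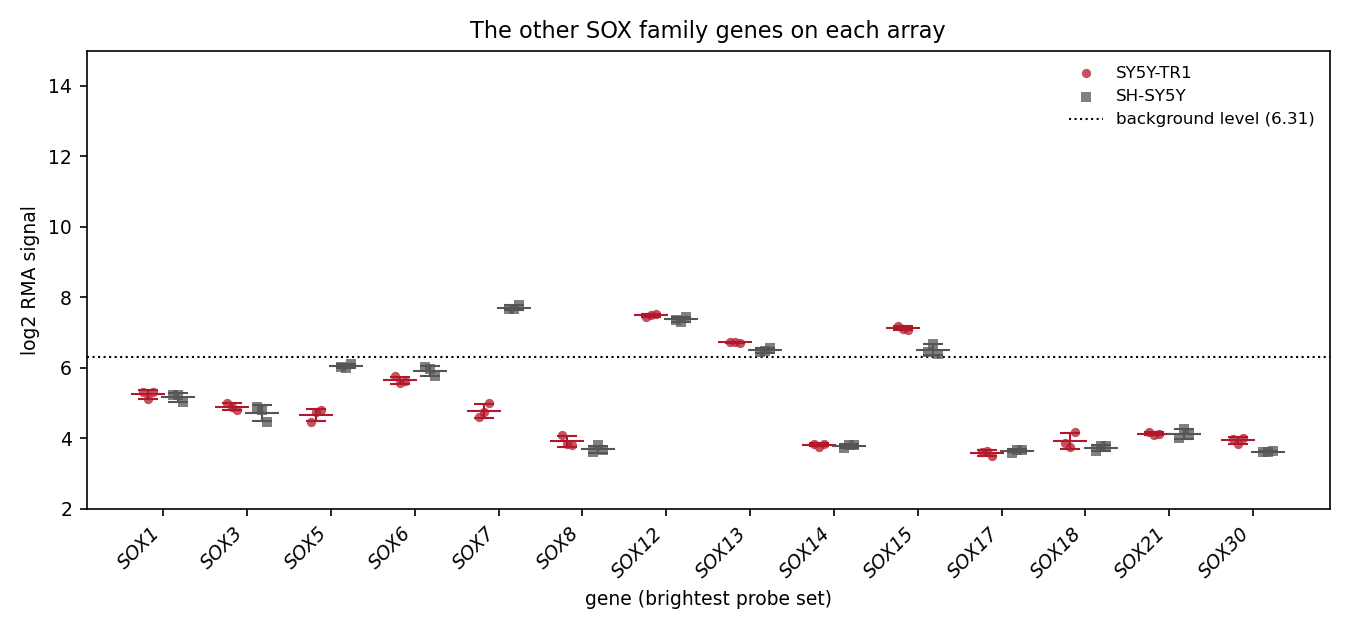
Log2 RMA signal (y axis) of the brightest probe set of 14 further SOX genes (x axis) on the 3 arrays of SY5Y-TR1 (red circles, left of each pair) and of SH-SY5Y (grey squares), with mean and SD as lines and the background level of 6.31 dotted. SOX7 lies at 4.79 in SY5Y-TR1 and 7.71 in SH-SY5Y; SOX12, SOX13 and SOX15 are above the dotted line in both.

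Other genes of the neural plate border and neural crest moved in both directions. Of 20 measured, 2 were higher, 3 lower and 15 did not pass, with a median log2 fold change of -0.20. MSX1, a homeobox factor of the border and of crest mesenchyme, read 10.42, 10.44 and 10.50 in SY5Y-TR1 and 4.86, 5.49 and 5.36 in SH-SY5Y. It was at least 17.6-fold higher, with 1 of its 2 probe sets called, whereas its relative MSX2 fell at least 1.69-fold, with 1 of 3 probe sets called. The called MSX1 probe set is named _s_at, and without _x_at and _s_at probe sets MSX1 was not called. The call of MSX2 rests on SY5Y-TR1 signals under background, since its bound is less than 2-fold, and with values raised to the background level 2 genes of this list were lower. SNAI2, a zinc-finger repressor of migrating crest, was 2.04-fold higher, a log2 fold change of 1.03 close to the 2-fold limit that fell below it without SH-SY5Y replicate 2 or with arrays centred on housekeeping genes, when 1 gene of this list was called higher. TFAP2B, the paralog of TFAP2A in sympathetic neuroblasts, fell at least 37.8-fold, with all 3 probe sets called. MYB, a proto-oncogene active in the early crest of the chick, fell at least 2.53-fold, with 1 of 2 probe sets called.

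In the endothelin axis, EDNRB was not above background, 1 of 5 other measured genes was higher and 4 did not pass, with a median log2 fold change of 0.04. EDN2, which encodes a ligand, read 7.97, 7.97 and 8.08 in SY5Y-TR1 and 6.62, 6.40 and 6.19 in SH-SY5Y, where replicate 3 lay under the background level. The lines did not overlap, and the difference was 3.04-fold (log2 fold change 1.60, adjusted p = 1.30e-05 from limma). ECE1, the enzyme that releases mature endothelins, had a log2 fold change of 0.92. EDN3, the ligand of EDNRB in the crest, was under background in both lines.

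Among 4 neuronal and Hippo-pathway genes reported as targets of SOX4 and SOX11 in chick and mouse embryos and neural progenitors, 3 were lower and 1 did not pass, with a median log2 fold change of -1.09. DCX, a microtubule-binding protein of migrating neuroblasts, read 3.73, 3.85 and 4.29 in SY5Y-TR1 and 7.89, 8.08 and 8.07 in SH-SY5Y, a fall of at least 3.25-fold. MAP2 fell 2.16-fold and TEAD2 2.10-fold, the first through 1 of 2 and the second through 1 of 4 probe sets. TUBB3, the neuronal beta-tubulin, had a log2 fold change of -0.19. Of 9 cartilage genes that SOX9 drives in chondrocytes, 1 was higher and 8 did not pass (median 0.12), and 7 were at or under background on every array. The higher gene, COMP, a matrix glycoprotein, read 7.96, 7.90 and 7.93 in SY5Y-TR1 and 4.95, 5.20 and 5.07 in SH-SY5Y, a change of at least 3.07-fold. It has a single probe set, named _s_at. COL2A1, the main collagen of cartilage, was under background in both lines. Of 7 partners of SOX2 and progenitor markers, 0 were called (median 0.11), and 6 were at or under background on every array. The intermediate filament gene NES, with a log2 fold change of -0.53, was above background in both lines. POU3F2, a partner of SOX2 in neural progenitors, was under it on all 6 arrays, at a log2 fold change of 0.26.

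**Figure D4:**
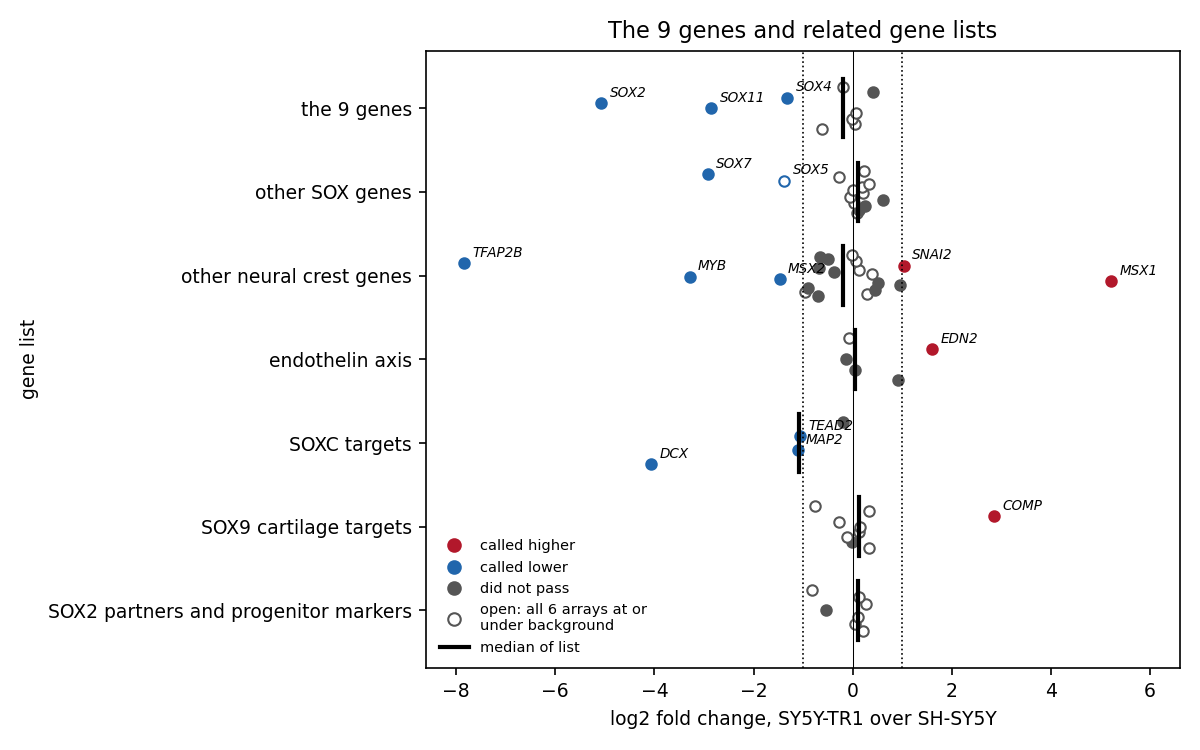
Log2 fold change (x axis, SY5Y-TR1 over SH-SY5Y) of the 9 genes and of the measured genes of 6 related lists (y axis), each point a gene, red where called higher, blue where called lower, grey where it did not pass, and open where all 6 arrays lay at or under the background level. The black bar is the median of a list and dotted lines mark 2-fold; SOX2, SOX11 and SOX4 lie left of the dotted line, and in the list of other neural crest genes TFAP2B at -7.84 and MSX1 at 5.22 lie at opposite ends, both placed by the signal of a line under background (SY5Y-TR1 for TFAP2B, SH-SY5Y for MSX1).

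Markers of cell types were set beside these values. Of 8 noradrenergic neuroblast markers, 5 were lower and 3 did not pass. The log2 of their summed signal was 12.18 to 12.23 in SY5Y-TR1 and 14.06 to 14.13 in SH-SY5Y, so this list moved down with SOX2, SOX4 and SOX11. DDC fell at least 31.9-fold, DBH at least 7.71-fold and GATA3 4.24-fold, while TH, which encodes tyrosine hydroxylase, was under background in both lines. DBH was called through 1 of its 2 probe sets, DDC and GATA3 through all of theirs. Of 8 fibroblast markers, 3 were higher and 3 lower, with a median log2 fold change of -0.13. Their summed signal was 14.72 to 14.85 in SY5Y-TR1 and 13.73 to 13.80 in SH-SY5Y. The brightest genes dominate this sum, COL3A1 in both lines and COL1A1 in SY5Y-TR1, and COL3A1 did not pass. COL1A1 was 13.2-fold, THY1 2.50-fold and PDGFRB 2.35-fold higher, whereas PDGFRA was 4.44-fold and LUM 4.04-fold lower and DCN at least 5.0-fold lower. Called were 3 of 5 COL1A1, 1 of 4 PDGFRA, 1 of 2 LUM and 4 of 7 DCN probe sets, and all of THY1 and PDGFRB. The part of either list in the results was not tested. Of 7 Schwann cell markers, 0 were called and 6, among them S100B and ERBB3, were at or under background on every array, as was SOX10, and the summed signal was 8.22 to 8.42 in SY5Y-TR1 and 8.18 to 8.35 in SH-SY5Y. The remaining Schwann marker, GJB1, averaged 6.68 on the SY5Y-TR1 arrays, against 6.64 on those of SH-SY5Y. Of 5 melanocyte markers, whose summed signal was 8.74 to 8.88 in SY5Y-TR1 and 8.58 to 8.61 in SH-SY5Y, TYRP1 passed as lower with both lines under background, and MITF, with a log2 fold change of 0.35, was above background in both. The 5 blood cell and 5 endothelial cell markers were at or under background on every array, and the brightest of them were HBB, CD3E, PECAM1 and VWF.

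The genes whose profiles over the 6 arrays lay nearest to that of SOX2, by the Euclidean distance between log2 signals centred on each gene's mean, were PLPPR5 (0.21 log2 units), the noradrenaline transporter gene SLC6A2 (0.29) and BEND4 (0.31). Nearest to SOX11 were the kinetochore gene CENPF (0.19), the adhesion gene CADM1 (0.19) and PTGFRN (0.20). With 2 lines such a distance reflects mainly the size of the difference between them.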

How the data were processed

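Total RNA of SY5Y-TR1 and SH-SY5Y cells was hybridized to 3 arrays for each line. The authors deposited log2 signals made with RMA in Affymetrix Expression Console, per the labels; no version of it was stated, and neither scanner files nor detection calls were used. RMA corrects background, quantile-normalizes the arrays and summarizes probes, which compresses differences near background. Array medians ran from 5.56 to 5.59, and precision is limited by the 3 arrays per line. Replicates of a line correlated at 0.997 to 0.998 and arrays of different lines at 0.959 to 0.960 (Pearson's r across probe sets, which are not independent replicates).

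After 62 control probe sets were set aside, 54613 were fitted with limma 3.58.1 in R 4.3.3 (lmFit, eBayes, no block), and separately 19775 genes, each by its brightest probe set among the 41091 with 1 symbol. All 9 genes were found, and 0 probe sets with several symbols included any of them. Names came from the platform annotation, and promoter windows from RefSeq. The fit was also run on simulated arrays with known changes. The outcome is not given here, and such a run cannot show whether the replicates were technical. The 9 genes, the lists and their thresholds were chosen with earlier results of these data known. Other genes named are up to 3 of the largest called increases and of the largest called decreases of each list, the 2 brightest genes of a list with no call (CYP3A4 and KRT10 of the unrelated tissues, GAPDH and PPIA of the housekeeping genes), and the nearest profiles to the 2 genes with the largest changes; further genes of the lists (SOX12, SOX13, SOX15, SOX1, SOX3, SOX8, ECE1, EDN3, TUBB3, COL2A1, TH, MITF, S100B) were named after their values were seen. In the lists, 20 of 22 neural crest, 5 of 6 endothelin and 7 of 8 progenitor genes, 8 of 10 noradrenergic, 7 of 9 Schwann, 5 of 6 melanocyte and 5 of 6 blood genes were analysed here. The alternatives were other choices of probe sets, scaling, low-value filters, variance models, thresholds and tests, a replicate block, and each array left out.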

Additional observations from a re-analysis of the deposited data

How the results depend on the processing

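The falls of SOX2 and SOX4 were called in all 18 alternative settings. That of SOX11 was called in each but the setting without _x_at and _s_at probe sets, which gave no value for it. Not all settings could remove a call. The looser fold limit and the adjusted p under 0.01 could not, and the block, the variance model and the t-tests left the log2 fold changes unchanged. Log2 fold changes ranged from -5.20 to -1.31 for SOX2, from -1.38 to -1.08 for SOX4, from -2.91 to -2.78 for SOX11 and from 0.36 to 0.44 for SOX9. Every called gene had an adjusted p of at most 0.00319, so the fold limit set the calls. At a fold of at least 1.5, EDNRB also passed (-0.61, under background), 1 other SOX gene, 2 endothelin genes and 3 neural crest genes were higher, and 8 neural crest genes, 1 cartilage gene and 1 SOX2 partner or progenitor marker were lower. The median of the 9 genes was 0.01 with the mean of all probe sets, -2.09 with dim genes left out, 0 with values raised to the background level, and -0.34 to -0.12 when each array was left out. Of the other SOX genes, 1 was lower with the mean of all probe sets, with dim genes left out or with values raised to the background level. Of the neural crest genes, 1 was higher without _x_at and _s_at probe sets or with housekeeping centring, and 1 to 2 when each array was left out. Lower were 2 with the mean of all probe sets, without _x_at and _s_at probe sets or with values raised to the background level, 4 with housekeeping centring, and 3 to 4 when each array was left out. Of the SOX4 and SOX11 targets, 2 were lower with the mean of all probe sets or without _x_at and _s_at probe sets. Without _x_at and _s_at probe sets 0 cartilage genes were higher. The background level was 4.61 as the median and 6.77 as the 95th percentile of the same list, and the fall of SOX2 was then at least 18.2-fold and at least 4.08-fold. SOX10 and PAX3 lay above the level of 4.61 on every array, and EDNRB on every SH-SY5Y array. Whether these genes count as under background thus depends on the level chosen. With the replicate number as a block, 3 of the 9 genes were again lower, 8 of their probe sets were called and 2245 genes passed. Same-numbered arrays did not deviate together over all probe sets (r = -0.028 to 0.005, best other pairing 0.033 to 0.064). A shared batch that touched few genes could not be seen in this way. With the fold limit, the methods' t-test called 2245 genes by unadjusted p and 2245 after Benjamini-Hochberg, 3 of the 9 genes among them.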

Other observations

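Transcripts from the loci of these genes were looked up after the values were seen. SOX2-OT, the long noncoding RNA whose gene contains SOX2, averaged 2.63 ± 0.06 on the SY5Y-TR1 arrays, against 2.91 ± 0.14 on those of SH-SY5Y (mean ± SD of 3 arrays), under the background level of 6.31, through its 1 probe set. FOXD3-AS1 averaged 5.15 ± 0.06 in the resistant cells, against 4.77 ± 0.11 in the parental cells, also under it. The antisense genes SOX9-AS1 and EDNRB-AS1 lay under the background level on all 6 arrays.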
